A study of Mus musculus with 20 samples.

Results

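The cytosolic ribosomal protein genes of the mouse encode the proteins of the large (Rpl) and small (Rps) subunits of the ribosome, and their transcripts were followed here in fibroblasts stimulated with inflammatory agents. Members were chosen by symbol alone: Rpl or Rps followed by a number, with the usual suffix letters, plus Rplp0, Rplp1, Rplp2 and Rpsa, leaving out pseudogene symbols and the Rps6k kinases. Of 45706 genes in the deposited count table, 88 fit this symbol rule and 78 of them had at least 1 CPM (the usual read count scaled to library size) in at least 2 of 20 libraries. The 78 comprise 47 genes of the large subunit, its stalk proteins included, and 31 of the small subunit, spread over 19 chromosomes.

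The libraries came from primary embryonic fibroblasts of C57BL/6 mice. All cells lacked c-Rel, an NF-kB subunit: the control genotype is crel-/-, and the other, called the knock-in here, is crel-/-RelA-TA-KI, which in addition carries an altered form of the NF-kB subunit RelA whose changed residues the labels do not give. Cells of each genotype were starved overnight in 0.5% serum and left unstimulated (0 h) or given IL-1b at 10 ng/ml, TNF at 10 ng/ml or LPS at 100 ng/ml for 0.5, 1 or 3 h, which makes 20 groups of 1 library each. The study asks how RelA drives its target genes, so the ribosomal protein genes were measured alongside rather than as its object. No label states separate cultures, so each p-value reflects the scatter among these libraries alone, and that scatter may be technical.

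Ribosomes are built in the nucleolus from ribosomal RNA and about equal numbers of each ribosomal protein, so the protein genes are usually transcribed at high and matched levels. Their mRNAs begin with a run of pyrimidines, the 5′ terminal oligopyrimidine (TOP) tract, through which the kinase mTOR controls their translation, and growth factors and Myc raise ribosome production. In fibroblasts several members serve as reference genes for quantitative PCR. Mammalian genomes hold many processed pseudogenes of these genes, whose sequences nearly match the spliced mRNAs.

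That last property bears on every level below, and 3 coding stretches of 50 bases, the length of the reads, show it. The stretches were taken from GENCODE M21 coding transcripts and are shown to contrast a shared and an unshared sequence. They were chosen after the values were seen, and capitals are not used because the whole stretch is compared. Each is the coding stretch of its gene, among those considered, that was found in the most other genes, so it is not a typical one.

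Rpl10: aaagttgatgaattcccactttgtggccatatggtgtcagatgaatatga

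Rpl23a: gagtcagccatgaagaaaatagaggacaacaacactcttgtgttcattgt

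Rpl39l: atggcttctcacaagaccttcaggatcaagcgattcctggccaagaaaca

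The Rpl10 stretch (coding bases 124 to 173) was found in 10 other annotated genes, 9 of them pseudogenes, and the Rpl23a stretch (coding bases 250 to 299) in 18, of which 17 were pseudogenes. The Rpl39l stretch (coding bases 1 to 50) was found in no other gene. Across the members, 76 of 78 shared at least 1 transcript stretch of 50 bases with another annotated gene. Of the 77 members with a coding transcript, 23 had no coding stretch that was theirs alone, and the median share of such unique stretches was 12.1%. Whole coding transcripts, with their untranslated parts, can hold more. The share was 7.87% for Rpl10 and 58.4% for Rps16, both with no unique coding stretch, and Rps16 still averaged 15.8 counts per library. The sources used here do not give how multi-mapping reads were counted. A low value below is therefore a low count, and whether it is a low mRNA level was not tested.

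The start regions show the other feature, the pyrimidine run, in a part of the members. Below are 30 bases around the RefSeq start (15 before it and 15 from it on, coding strand, GRCm38.p6) with capitals marking the longest pyrimidine run that touches the 15 bases from the start on. Rpl9, Rpl10 and Rpl27 are among the members with the largest increases at LPS 3 h, Rplp0 and Rpl4 are common PCR references, and Rpl35, Rpl28 and Rpl35a were added after the sequences were seen because they show the run in full. The run was short in Rpl9 (2 bases), Rpl10 (3), Rpl27 (3) and Rpl4 (2), and in Rplp0 it had 7 bases.

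Rpl9 (chr5:65391417-65391446, minus strand): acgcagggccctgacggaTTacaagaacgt

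Rpl10 (chrX:74270801-74270830, plus strand): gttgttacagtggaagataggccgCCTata

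Rpl27 (chr11:101442230-101442259, plus strand): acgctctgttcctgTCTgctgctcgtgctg

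Rplp0 (chr5:115559452-115559481, plus strand): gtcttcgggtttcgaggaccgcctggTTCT

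Rpl4 (chr9:64173372-64173401, plus strand): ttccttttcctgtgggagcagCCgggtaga

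Rpl35 (chr2:39005117-39005146, minus strand): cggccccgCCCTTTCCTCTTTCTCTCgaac

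Rpl28 (chr7:4792950-4792979, plus strand): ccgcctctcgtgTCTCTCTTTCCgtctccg

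Rpl35a (chr16:33056467-33056496, plus strand): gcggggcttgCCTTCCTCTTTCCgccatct

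RefSeq start windows were at hand for 58 of the 78 members, in 69 windows. A pyrimidine run of 8 bases or more lay within the 50 bases from the start on in 38 of the 69 windows (55.1%), against 17.4% of 32851 windows of all genes. CTCTTTCC on the coding strand was present in 14.5% of the member windows of 300 bases (250 before the start and 50 from it on) and in 1.5% of all. CCGGAAGT on either strand, letters that ETS-family factors are known to bind, was present in 17.4% against 3.89%. TATAAA on either strand was present in 10.1% against 13.6%, and the kB motif, which NF-kB binds, in 10.1% against 8.46%. These matches describe the letters in the windows, and the RefSeq start can lie several bases from the true one.

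Total counts per library lay between 9248151 and 12574135, and 14023 genes were tested. The LPS 3 h libraries stood apart in composition: their TMM factors, which scale each library so that the typical gene is level across libraries, were 0.722 and 0.732, against at least 0.979 in each of the other 18. The marker sums that follow are on the TMM scale, where the low factors raise every CPM value of the LPS 3 h libraries. Sums on library totals are not given here. On the TMM scale the 8 fibroblast markers, among them Col1a1, summed to 78130 and 76280 CPM in the LPS 3 h libraries and to 49750 to 67780 CPM elsewhere. The 8 macrophage markers summed to 1871 to 3872 CPM over all libraries, and none of the 8 was at 0 in every library. The 6 neural and Schwann markers, of which 5 were tested, summed to 75.1 CPM in the crel-/- 0 h library and to 21.7 CPM in the knock-in 0 h library. In crel-/- cells they summed to 12.6 to 21.6 CPM after IL-1b or LPS and to 42.2 to 49.3 CPM after TNF, and in knock-in cells to 4.82 to 6.31 and 20.4 to 27.7 CPM. The 4 endothelial markers, of which 3 were tested, summed to 76.2 and 61.3 CPM at LPS 3 h and to at most 24.4 CPM elsewhere, mostly Kdr, with Pecam1 and Cdh5 near 0. Epithelial and skeletal muscle markers summed to at most 4.33 and 30.1 CPM. The part of these cells in the results was not tested, and in bulk libraries a change in cell makeup cannot be told apart from a change in RNA per cell.

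The 78 members together took a small share of each library, 0.645% to 0.870% of its counts. The highest was Rpl4, with 886 to 1036 CPM over the 20 libraries, followed by Rplp0 at 524 to 639 CPM, Rps3 at 517 to 649 CPM, Rpl8 at 496 to 618 CPM and Rpl13a at 413 to 550 CPM. At the other end, 12 members averaged under 30 counts per library. Rps6, the small subunit protein that S6 kinases phosphorylate, averaged so few that its 0 h libraries held 6 and 12 counts. Of the 88 genes by symbol, 10 did not pass the filter: Rps13, Rps29, Rpl24, Rpl38, Rps12l1, Rpl6l, Rpl10l, Rpl3l, Rps3a2 and Rps3a3. Rpl38, a large subunit protein with a known role in translating Hox mRNAs, had 0 to 8 counts per library, and Rps13 had 0 to 13.

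Counts followed coding uniqueness. Members with no unique coding stretch averaged 6.95 to 411 counts per library (median 50.9, 23 genes). Those with above 0 and up to 20% unique had a median of 483 counts (28 genes), and those above 20% a median of 1702 counts (26 genes). None of the 23 reached 1000 counts per library, against 4 of 28 and 20 of 26. Across 77 members the rank correlation of unique share with mean count was 0.77, a description across genes that share the same libraries and read length and are not corrected for gene length. Rpl13a is the plainest departure, with 2.5% unique coding stretches and 5273 counts per library. Exons of other annotated genes on the same strand cover 37.3% of its exon bases.

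**Figure D1:**
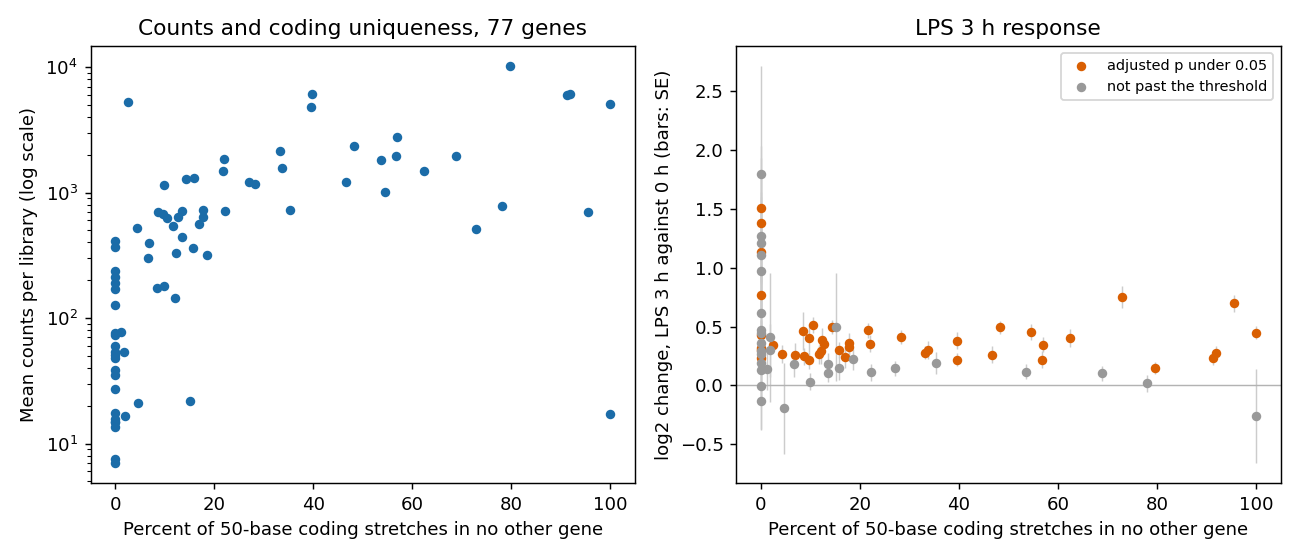
Left, mean counts per library (log axis) against the percent of 50-base coding stretches found in no other annotated gene, for 77 members. Right, the log2 change at LPS 3 h against 0 h with its standard error on the TMM scale; members at 0% spread widest, and those above 20% lie between −0.26 and 0.75. With scaling by library totals the members' median change at LPS 3 h is −0.30 instead.

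Per length, the order of levels changes. In CPM per kilobase of exon, a level, the medians over the 20 libraries were 879 for Rplp1, 660 for Rpl4, 633 for Rpl8, 336.5 for Rplp0, 166 for Rpl13a and 124 for Rps3. The exon lengths are those in the deposited table, which merge all annotated transcripts of a gene.

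The members varied little over the 20 libraries. The median SD of log2 CPM was 0.15 over the 78, against 0.24 over 10265 tested genes at least as high as the members' lower quartile and 0.31 over all 14023. Rpl4 (SD 0.061), Rplp0 (0.074), Rps26 (0.075) and Rpl22 (0.077) varied least. Rps27a (SD 0.67), Rpl23a (0.63), Rps27 (0.59) and Rps6 (0.56) varied most, and all 4 averaged few counts.

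The early response was small. Compared with 0 h and averaged over the 3 agents, the members' median change was 0.08 at 0.5 h and 0.11 at 1 h on the log2 TMM scale, where the median of all genes was 0.00 at both times. At 0.5 h, 5 of 78 members were higher and 0 lower by edgeR's quasi-likelihood test at an adjusted p of 0.05 (1 was lower at unadjusted p under 0.05, 0 lower by DESeq2 or limma-voom), against 2.90% and 2.53% of all genes. At 1 h, 15 were higher and 0 lower (1 lower at unadjusted p under 0.05, 0 by either other tool), against 7.12% and 6.70%. All 0 h comparisons share the same 2 libraries and their calls depend on them: without either, fewer members and fewer of all genes were called. Without the crel-/- 0 h library the members' median was 0.068 at 0.5 h and 0.096 at 1 h. Without the knock-in 0 h library it was 0.097 and 0.14. With scaling by library totals the 0.5 h counts were 3 higher and 1 lower, against 2.34% and 5.66% of all genes. The 1 h counts were then 9 higher and 3 lower, against 4.98% and 18.4%, with a median of −0.0041.

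The 5 members higher at 0.5 h were Rps27l, Rpl41, Rps10, Rpl13a and Rps14, by 0.36, 0.35, 0.23, 0.20 and 0.20 on the log2 scale. Their standard errors were 0.074, 0.062, 0.055, 0.040 and 0.047, in that order. The call was lost in 2, 1, 5, 1 and 7 of the 20 fits that left out 1 library, the 0 h libraries among them: without the crel-/- 0 h library Rps27l was at 0.29 and Rpl13a at 0.16, and without the knock-in 0 h library Rpl41 was at 0.26. Rpl41, the shortest ribosomal protein, had 53.8 and 47.1 CPM at 0 h in crel-/- and knock-in cells. It had 73.8 and 79.1 CPM after IL-1b for 0.5 h, 70.5 and 70.5 CPM after LPS, and 49.1 and 48.9 CPM after TNF. The IL-1b and LPS libraries all lie above both 0 h and both TNF libraries. Rps27l, a paralog of Rps27 known as a p53 target, showed the same order, with 34.9 and 38.3 CPM at 0 h, 50.3 and 55.7 after IL-1b, 48.1 and 53.0 after LPS and 39.2 and 37.3 after TNF.

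That split between agents was tested directly, without the 0 h libraries. At 0.5 h, 12 members were higher and 1 lower with IL-1b and LPS than with TNF, against 5.24% and 5.13% of all genes, and the members' median difference was 0.10. Rpl12 was higher by 0.58 (SE 0.14, adjusted p = 0.0196), Rpl41 by 0.58 (SE 0.066, adjusted p = 9.66e-05), Rps27l by 0.44 (SE 0.078, adjusted p = 0.00277) and the stalk protein Rplp1 by 0.34, all by edgeR's test. Rps14, a small subunit protein, was the fifth, higher by 0.32. The call of Rpl12 was lost in 3 of the 20 fits without 1 library, and that of Rps27l without the knock-in TNF 0.5 h library (0.39). Rpl37a was lower by −0.27 (SE 0.077, adjusted p = 0.0394), a call that DESeq2 did not make and that was lost in 10 of those fits. Without the crel-/- TNF 0.5 h library 3 members were higher, and Rplp1 was at 0.29 and past the threshold no longer. Rplp1 had 481 and 509 CPM after IL-1b for 0.5 h and 440 and 470 after LPS, against 361 and 391 after TNF and 390 and 378 at 0 h. Markers of every other cell type looked at differed between the same libraries, lower after IL-1b and LPS than after TNF in both genotypes. At 0.5 h the 8 macrophage markers summed to 2419 and 2712 CPM after IL-1b and LPS and to 3468 CPM after TNF in crel-/- cells, and to 1871, 2053 and 3023 CPM in knock-in cells. The 4 skeletal muscle markers, of which Myod1 and Myog were near 0, summed to 10.0, 9.52 and 23.3 CPM in crel-/- cells and to 16.9, 14.2 and 23.4 CPM in knock-in cells. The neural and Schwann markers summed to 13.4, 16.9 and 42.2 CPM in crel-/- cells and to 4.82, 5.32 and 20.4 CPM in knock-in cells. The endothelial markers summed to 16.7, 17.7 and 21.7 CPM in crel-/- cells and to 16.1, 17.9 and 19.7 CPM in knock-in cells. For the epithelial markers the sums were 1.59, 1.63 and 2.81 CPM in crel-/- cells and 1.52, 1.35 and 2.11 CPM in knock-in cells. At 0 h the macrophage markers summed to 3602 and 2927 CPM, and the skeletal muscle markers to 22.9 and 26.4 CPM, in crel-/- and knock-in cells. For both types, the IL-1b and LPS libraries lay below 0 h of their own genotype at 0.5, 1 and 3 h. The part of these markers in the members' difference, or in the responses against 0 h, was not tested.

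**Figure D2:**
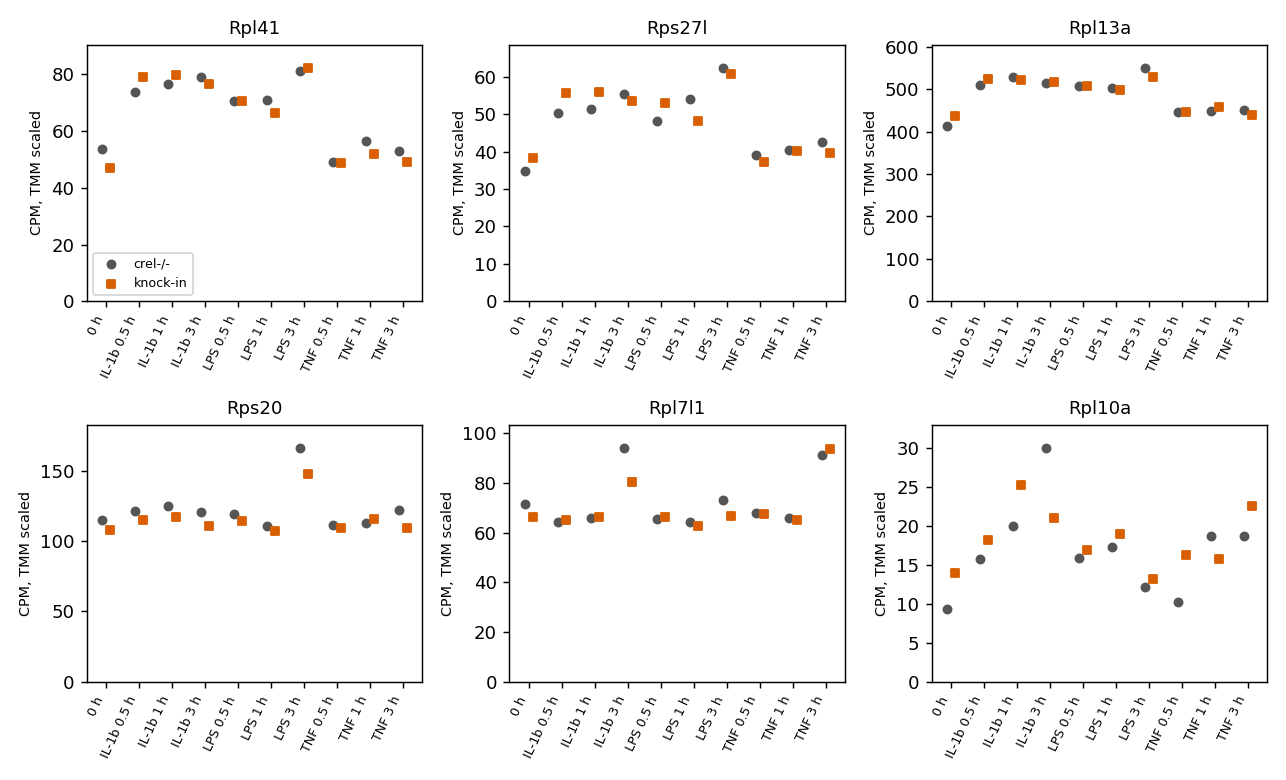
TMM-scaled CPM of 6 members in each of the 20 libraries by condition, circles for crel-/- and squares for the knock-in. Rpl41, Rps27l and Rpl13a are high after IL-1b and LPS and near the 0 h level after TNF, Rps20 is highest at LPS 3 h, and Rpl7l1 and Rpl10a are higher at 3 h of IL-1b and TNF than of LPS; with library totals as the scale, Rps20, Rpl41 and Rps27l are not higher at LPS 3 h than with the other agents.

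At 1 h the largest increases among the members named here were in genes with few counts. Rpl23a was higher by 2.30 (SE 0.68, adjusted p = 0.0383), Rps27a by 1.48 (SE 0.43, adjusted p = 0.0348), Rpl10 by 1.06 and Rpl9 by 0.82, and the first 2 of these lost the call with DESeq2 or limma-voom. These 4 calls were lost in 5, 7, 1 and 5 of the 20 fits without 1 library, and without the crel-/- 0 h library Rpl10 was at 0.92. All 4 have no unique coding stretch. Rpl41 and Rps27l were again among the 15, higher by 0.40 and 0.39. Rpl13a was higher by 0.21, with 413 and 437 CPM at 0 h and 448 to 529 CPM in the 6 libraries at 1 h.

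At 3 h the direction of the members' change depended on the scaling: on the TMM scale 38 of 78 members were higher and 0 lower, and with scaling by library totals 5 were higher and 21 lower. No member was lower at unadjusted p under 0.05 on the TMM scale, and none by DESeq2 or limma-voom. Of all genes, 25.5% were higher and 24.5% lower on the TMM scale, and 11.3% higher and 52.5% lower with library totals. The members' median change was 0.19 against 0.00 for all genes, and with library totals −0.11 against −0.31 for all genes. A change of scale shifts all genes alike, so the gap of 0.20 to the typical gene is the same on both scales. It is therefore no check on the scale. Without the crel-/- 0 h library fewer members and fewer of all genes were called, and the members' median on the TMM scale was 0.19.

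On the TMM scale the increases at 3 h among the members with unique coding sequence were modest. The counts by class below are to be read against 25.5% of all genes higher, and were not made with library totals. Of 26 members above 20% unique, 17 were higher, with a median change of 0.19 and a highest of 0.50 (Rps27l). Of 28 with up to 20%, 10 were higher, with a median of 0.16. Of 23 with none, 11 were higher with a median of 0.44, and the median standard error was 0.20 in this class against 0.054 in the class above 20%. The reasons for the wider changes of low-count members were not tested.

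The 5 largest increases past the threshold at 3 h were those of Rpl23a, Rps27a, Rpl36a, Rpl10 and Rpl9. Rpl23a rests on 4 counts in the 2 libraries at 0 h and 39 in the 6 libraries at 3 h, a ratio of 3.95 after scaling, with an exact 95% counting interval of 1.43 to 15.2. Rps27a, which encodes a fusion of ubiquitin and a small subunit protein, had 28 counts at 0 h and 247 at 3 h, a ratio of 3.58 (2.41 to 5.49), and Rpl36a had 16 and 98, a ratio of 2.48 (1.46 to 4.51). Intervals cover counting error only. Exons of genes on the opposite strand cover 59.7% of Rpl23a's exon bases, and whether counting used strand is not stated. The calls of Rpl23a, Rps27a and Rpl36a were lost in 9, 1 and 5 of the 20 fits without 1 library, Rps27a's without the crel-/- 0 h library (1.44). Rpl10, a late-joining large subunit protein on the X chromosome, had 3.07 and 4.16 CPM at 0 h. Its 6 libraries at 3 h held 10.2 and 8.38 CPM with IL-1b, 7.98 and 7.89 with LPS and 4.12 and 6.72 with TNF, higher on average by 1.02 (SE 0.23, adjusted p = 0.00236). One TNF library, the crel-/- one, lies below the knock-in 0 h library. Rpl9 was higher by 0.95 (SE 0.22, adjusted p = 0.00334), with 2.90 and 2.80 CPM at 0 h and 3.46 to 8.01 CPM at 3 h.

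By agent, the 3 h responses were not alike in size. After IL-1b 27 members were higher and 0 lower, against 16.9% and 13.8% of all genes. After LPS 44 were higher and 0 lower, against 29.2% and 28.3%, and after TNF 7 were higher and 0 lower, against 18.7% and 16.0%. No member was lower at unadjusted p under 0.05 or by DESeq2 or limma-voom in any of the 3. The members' medians were 0.18, 0.30 and 0.11 on the TMM scale. With library totals they were 0.023, −0.30 and −0.036, with 12 higher and 4 lower after IL-1b, 1 and 45 after LPS and 4 and 1 after TNF. The shares of all genes on that scale were 9.4% higher and 27% lower after IL-1b, and 12.2% and 65% after LPS. Those after TNF are not given here. The median of all genes then lay at −0.15, −0.62 and −0.14. The counts on the TMM scale fell for IL-1b without the crel-/- IL-1b 3 h library and for LPS without the crel-/- LPS 3 h library. The numbers of all genes called fell in these fits too, and the members' medians were 0.12 and 0.29. For TNF the count fell without the crel-/- 0 h library.

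**Figure D3:**
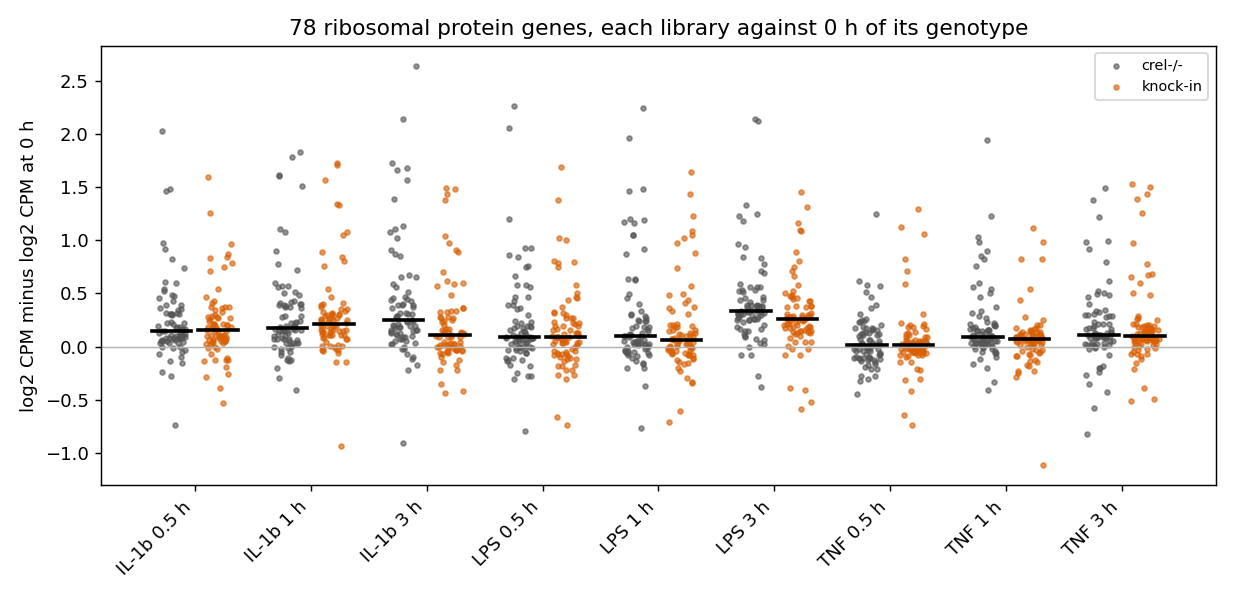
Log2 TMM-scaled CPM of each of 78 members in each stimulated library minus its value at 0 h of the same genotype, grey for crel-/- and orange for the knock-in, with the median as a bar. The 2 LPS 3 h libraries have the highest medians (0.33 and 0.26), which become negative under library totals, and the 2 TNF 0.5 h libraries the lowest (0.015 and 0.015).

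Each library against 0 h of its own genotype gave the same picture on the TMM scale. At LPS 3 h, 73 members in crel-/- cells and 70 in knock-in cells lay above 0 h, and for 64 of 78 members both LPS 3 h libraries lay above both 0 h libraries and for 0 below both, against 36.5% and 38.6% of all genes. At IL-1b 3 h 45 lay above and 2 below, against 32.1% and 29.8% of all genes, and at TNF 3 h 46 and 1, against 31.9% and 31.3%. At IL-1b 3 h the median was 0.25 in crel-/- cells and 0.11 in knock-in cells, and at TNF 3 h it was 0.11 and 0.096. At TNF 0.5 h, 41 and 42 of 78 members lay above 0 h. The share of all genes above 0 h was not counted for single libraries.

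The share of counts went the other way at LPS 3 h. Members took 0.834% and 0.804% of counts at 0 h in crel-/- and knock-in cells, and 0.668% and 0.645% at LPS 3 h, the lowest of the 20 libraries. After TMM scaling the same members summed to 7452 and 7381 CPM at 0 h and to 9257 and 8821 CPM at LPS 3 h, the highest 2 of the 20. At IL-1b 3 h the shares were 0.840% and 0.789%, and the scaled sums 8591 and 7919 CPM. A share of polyA RNA and a level per typical gene are different quantities, and neither gives molecules per cell.

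**Figure D4:**
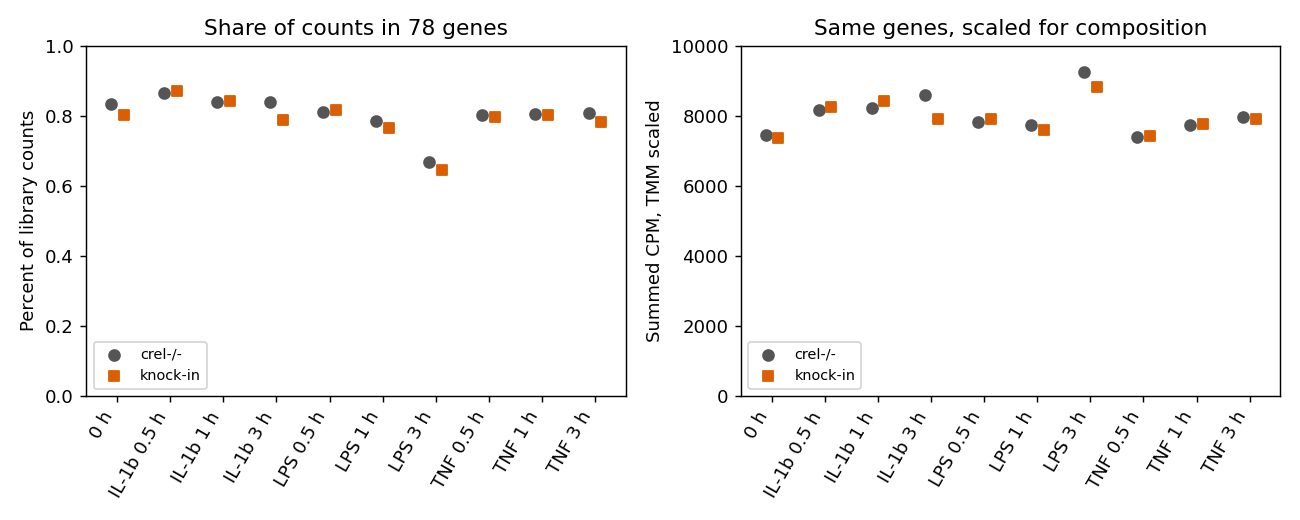
Left, percent of each library's counts in the 78 members; right, their summed CPM after TMM scaling, by condition, circles for crel-/- and squares for the knock-in. The LPS 3 h libraries are lowest on the left (0.668% and 0.645%) and highest on the right (9257 and 8821 CPM).

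In the LPS 3 h response the 5 largest increases past the threshold on the TMM scale were those of Rps27a (1.51, SE 0.53, adjusted p = 0.0257), Rpl9 (1.38, SE 0.27), Rpl10 (1.14, SE 0.28), Rpl27 (0.77, SE 0.18) and Rps27l (0.75, SE 0.090, adjusted p = 9.25e-06). With library totals all 5 stayed positive (0.91, 0.78, 0.53, 0.16 and 0.15), and of the 5 only Rpl9 was still called. Rps27a was not called without the crel-/- 0 h library (1.18) or without the crel-/- LPS 3 h library (0.91). Rps27l had 62.4 and 60.7 CPM at LPS 3 h, against 34.9 and 38.3 CPM at 0 h. Among the largest after IL-1b were Rps27a (2.21, SE 0.46), Rpl36a (1.504), Rpl10 (1.37, SE 0.26) and Rps12 (1.18), of which Rpl36a lost the call with relative log expression scaling, DESeq2 and limma-voom and in 14 of the 20 fits without 1 library. Rps27a was at 1.87 without the crel-/- 0 h library, and Rps12 at 0.87 without the crel-/- IL-1b 3 h library and 0.68 without the knock-in 0 h library, all past the threshold no longer. After TNF they were Rps27a (1.58, SE 0.49, adjusted p = 0.0243), Rpl27 (0.86, SE 0.17), Rpl10a (0.83, SE 0.22), Rpl7l1 (0.42, SE 0.071) and Rps10 (0.27, SE 0.067). Without the crel-/- 0 h library Rpl10a was at 0.61 and Rps10 at 0.19, and without the knock-in TNF 3 h library Rpl10a was at 0.76, none of them called, and Rps27a lost the call in 3 fits. Rpl27, a large subunit protein, had 5.00 and 5.43 CPM at 0 h and 8.46 to 10.3 CPM in all 6 libraries at 3 h, with no overlap.

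LPS was compared with IL-1b and TNF at 3 h without the 0 h libraries, which the responses share. On the TMM scale 26 members were higher and 2 lower with LPS, against 26.0% and 25.0% of all genes. With library totals 0 were higher and 53 lower, on a scale where the median of all genes was itself −0.45. The shares of all genes called on that scale are not given here. The members' median difference was 0.14 against 0.00 for all genes, and −0.31 against −0.45 with library totals. Without the crel-/- LPS 3 h library 15 were higher. Rps20, a small subunit protein, had 166 and 148 CPM at LPS 3 h and 107 to 125 CPM in the other 18 libraries, so that the 2 LPS libraries do not overlap the rest on this scale. The difference was 0.44 (SE 0.049, adjusted p = 5.64e-06) on the TMM scale and −0.014 with library totals. Rpl9, Rps27l, Rpl41 and Rps24 were higher by 0.64, 0.38, 0.38 and 0.38 on the TMM scale, and with library totals the differences were 0.19, −0.076, −0.076 and −0.077.

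The 2 members lower with LPS were Rpl10a and Rpl7l1, and both stayed lower under every scaling tried. Library totals shift all genes down in this comparison, so on that scale they could not have done otherwise. Rpl7l1 is a paralog of Rpl7 that takes part in making the large subunit. It had 94.0 and 80.6 CPM at IL-1b 3 h and 91.1 and 93.9 CPM at TNF 3 h, against 73.2 and 66.7 CPM at LPS 3 h and 71.7 and 66.3 CPM at 0 h. The IL-1b and TNF libraries lie above all LPS and 0 h libraries, and the difference was −0.36 (SE 0.064, adjusted p = 0.000303). On the TMM scale its partner Rpl7 had 238 and 225 CPM at LPS 3 h against 187 to 203 CPM at 3 h of IL-1b and TNF. Rpl10a, a large subunit protein near the exit of transfer RNA, had 12.2 and 13.1 CPM at LPS 3 h and 18.7 to 29.9 CPM at 3 h of the others, a difference of −0.85 (SE 0.21, adjusted p = 0.00363).

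The stalk proteins Rplp0, Rplp1 and Rplp2 form the flexible arm of the large subunit that recruits translation factors. At LPS 3 h they were higher by 0.22 (SE 0.053, adjusted p = 0.003), 0.38 and 0.30 on the TMM scale, and at −0.385, −0.23 and −0.30 with library totals. Rplp0 had 534 and 534 CPM at 0 h and 639 and 604 CPM at LPS 3 h, and 524 to 588 CPM in the other 16 libraries. In the average 3 h response they were higher by 0.13, 0.28 and 0.25, and with library totals the values were −0.17, −0.019 and −0.050. Rplp2 was at 0.19 without the crel-/- 0 h library and not called, and Rplp0 lost the call in 3 of the 20 fits without 1 library.

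Members used as PCR references had changes of one sign on each scale. At LPS 3 h Rpl13a, Rps18, Rpl32 and Rpl4 were higher by 0.35, 0.38, 0.40 and 0.15 on the TMM scale, and at −0.26, −0.22, −0.20 and −0.46 with library totals. Rpl4, the steadiest member, had 939 and 908 CPM at 0 h and 1036 and 1006 CPM at LPS 3 h. Its change over all agents at 3 h, 0.088, did not pass the threshold (SE 0.042, adjusted p = 0.0969).

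Several members have known roles outside the ribosome. Rpl5, Rpl11, Rpl23 and Rpl26 bind Mdm2 or p53 mRNA, Rps3 joins NF-kB complexes and repairs DNA, Rpsa is the laminin receptor precursor, and Rps19 is mutated in Diamond-Blackfan anaemia. At 3 h Rpl5 was higher by 0.31 (SE 0.10, adjusted p = 0.0218), Rpl26 by 0.17, Rps3 by 0.17 and Rps19 by 0.17 on the TMM scale, and with library totals these were 0.0064, −0.14, −0.13 and −0.13. Rpl11, Rpl23, Rpsa and Rps6 did not pass the threshold, at 0.34 (SE 0.20), 0.058 (SE 0.063), 0.035 (SE 0.14) and 1.13 (SE 0.53). Rpl5 and Rpl26 each lost the call in 3 of the 20 fits without 1 library, Rps3 in 1 (0.16 without the crel-/- 0 h library), and Rps19 without the crel-/- TNF 3 h library (0.15) or the knock-in 0 h library (0.094). Rps3 had 518 and 521 CPM at 0 h and 649 and 611 CPM at LPS 3 h. Exons of a gene on the opposite strand cover 24.3% of Rpl5's exon bases, and its coding sequence has no unique stretch.

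Paralogs and their partners were compared as pairs. Rpl22 held 166 to 201 CPM and Rpl22l1, whose product can replace Rpl22, 27.5 to 39.4 CPM, and neither passed the threshold at 3 h (0.062, SE 0.054, and 0.12, SE 0.081). Rpl3 had 41.2 to 55.1 CPM and was higher at 3 h by 0.20 (adjusted p = 0.0173) on the TMM scale, at −0.11 with library totals and at 0.14 and not called without the knock-in 0 h library, while its muscle form Rpl3l did not pass the count filter, and neither did Rpl10l, the testis form of Rpl10. Rps27l had 34.9 to 62.4 CPM, while Rps27 was counted at 0.514 to 2.95 CPM, with no unique coding stretch. Rps27 was at 0.93 at 3 h (SE 0.40, adjusted p = 0.0655). Rpl39 had 33.9 to 48.2 CPM and Rpl39l 0.689 to 3.07 CPM, and neither passed the threshold at 3 h (0.069, SE 0.077, and −0.31, SE 0.30). Rps4x, on the X chromosome, held 96.4 to 125 CPM and was at −0.054 (SE 0.060) at 3 h. These changes are on the TMM scale. With library totals Rpl22, Rpl39 and Rps4x were called lower at 3 h, at −0.24, −0.23 and −0.36. Rpl22l1 and Rpl39l, at −0.19 and −0.605, were not called on that scale.

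The knock-in and crel-/- libraries were compared over all 10 conditions. Of 78 members 2 were higher and 3 lower in the knock-in, against 7.99% and 7.81% of all genes, and the median difference was −0.023 against 0.0023 for all genes. Rps4l had 33.4 to 39.1 CPM in the 10 knock-in libraries and 21.2 to 30.9 CPM in the 10 crel-/- libraries, with no overlap. The difference was 0.47 (SE 0.051, adjusted p = 3.56e-05), higher in 10 of 10 conditions. Rps4l lies on chromosome 6 (148354656 to 148355598, plus strand, mm10) and has no coding transcript in GENCODE M21. It is a copy related to Rps4x, whose difference was −0.064 (SE 0.033, adjusted p = 0.223).

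Rpl39l, a paralog of Rpl39 best known from the testis, was the other. It had 1.25 to 3.07 CPM in the knock-in libraries (median of 20 libraries 1.45) and 0.689 to 1.70 CPM in crel-/-, so the groups overlap, and it was higher in 10 of 10 conditions by 0.81 (SE 0.18, adjusted p = 0.00749). It was counted at 7 to 32 reads per library, on chromosome 16 (10170226 to 10174911, plus strand), and its coding sequence shares no stretch with another gene. Rpl39 itself differed by −0.054 (SE 0.042, adjusted p = 0.437).

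The 3 members lower in the knock-in differed by little. Rpl15, a large subunit protein, had 33.2 to 39.7 CPM in the knock-in and 37.5 to 43.2 CPM in crel-/-, was lower in all 10 conditions, and differed by −0.18 (SE 0.029, adjusted p = 0.000842). Rps24 differed by −0.088 (SE 0.028, adjusted p = 0.046) and Rps20 by −0.083 (SE 0.026, adjusted p = 0.0438). DESeq2 called neither, and the calls were lost in 14 and 16 of the 20 fits without 1 library. Leaving out 1 library gave 1 or 2 members lower. Rplp0 differed by −0.0069, Rpl4 by −0.013 and Rpl13a by 0.0034, with standard errors of 0.024, 0.023 and 0.022.

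**Figure D5:**
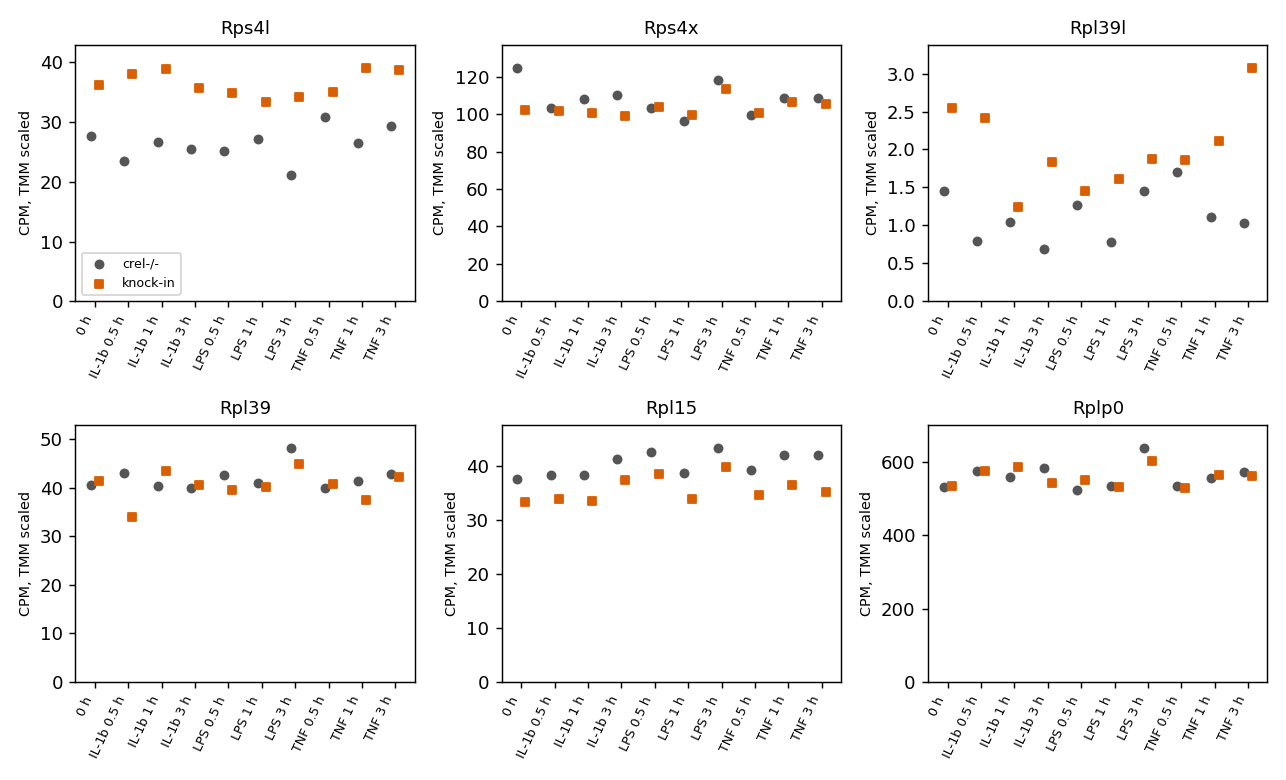
TMM-scaled CPM of 6 members by condition, circles for crel-/- and squares for the knock-in. The 10 knock-in libraries lie above the 10 crel-/- libraries for Rps4l, Rpl39l is higher in each pair, Rpl15 is lower in each pair, and Rps4x, Rpl39 and Rplp0, shown for comparison, were not past the threshold.

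The genotype difference itself was tested for a change between 0.5 h and 3 h. By edgeR's quasi-likelihood test 0 members were called in either direction, against 1.68% and 1.76% of all genes, with 1 higher and 3 lower at unadjusted p under 0.05 and 0 called by DESeq2 or limma-voom. The members' median was −0.089 against 0.0018 for all genes, and 61 of 78 were negative. At IL-1b 3 h, 61 members lay lower in the knock-in library than in crel-/- (median −0.13), and at LPS 3 h 56 did (median −0.069), whereas at 0 h 36 did. At TNF 3 h 44 did (median −0.015), at LPS 1 h 52 did (median −0.056), and at IL-1b 1 h 50 lay higher instead. Each of these is 1 library against 1, and members of a library are not replicates. The shares of all genes in these single pairs were not counted.

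Other genes of ribosome production were counted from lists of known function. The shares of all genes to read these counts against were 25.5% higher and 24.5% lower at 3 h on the TMM scale, and 11.3% and 52.5% with library totals. Of 36 ribosome biogenesis and RNA polymerase I genes, which make and process ribosomal RNA, 29 were higher and 0 lower at 3 h (median 0.63), or 21 and 2 (median 0.33) with library totals, led by Wdr43 (1.38, SE 0.14) and Rrp12 (1.21, SE 0.14), both parts of the processing machinery. They were higher in 29, 14 and 31 of 36 after IL-1b, LPS and TNF, against 16.9%, 29.2% and 18.7% of all genes, and lower in 0, 3 and 0, against 13.8%, 28.3% and 16.0%, with medians of 0.79, 0.18 and 0.83. With library totals the medians were 0.62, −0.42 and 0.69, and after LPS 1 was higher and 22 lower, against 12.2% and 65% of all genes. With LPS against IL-1b and TNF at 3 h, 1 was higher, Wdr43 at 0.78 (SE 0.13), and 28 lower, led by Polr1b (−1.58, SE 0.13), a core subunit of RNA polymerase I, and Grwd1 (−1.33, SE 0.15), against 26.0% and 25.0% of all genes. The members' median in that comparison was 0.14 on the TMM scale and −0.31 with library totals, where the list's was −1.09.

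Of 23 translation factors and other TOP mRNAs, 9 were higher and 1 lower at 3 h (median 0.16), and 0 higher and 13 lower with library totals. Tpt1, a TOP mRNA, was among those higher at 0.52 (SE 0.15), and Eif4b, an initiation factor, was lower at −0.29 (SE 0.058). The shares of all genes at 3 h were 25.5% and 24.5%, or 11.3% and 52.5% with library totals. Of 77 mitochondrial ribosomal protein genes, 13 were higher and 6 lower at 3 h (median 0.066), or 1 and 39 with library totals, the 13 and the 6 being smaller shares than over all genes. At LPS 3 h 11 were higher and 22 lower (median −0.024), against 29.2% and 28.3% of all genes, or 1 and 62 with library totals, with Mrpl30 at 1.00 (SE 0.081) and Mrpl49 at −1.33 (SE 0.14). Of 22 mTOR and Myc regulators, 10 were higher and 5 lower at 3 h, the latter near the share of all genes, or 6 and 10 with library totals, among them Myc (1.90, SE 0.40), the transcription factor that drives ribosome production, Mxd1 (1.67, SE 0.18), its antagonist, and Ddit4 (−0.95, SE 0.21), an inhibitor of mTOR. Mxd1 was at 4.63 (SE 0.21) and Ddit4 at −3.10 (SE 0.33) at LPS 3 h. Of 7 small nucleolar RNA host genes, whose introns carry guides for ribosomal RNA modification and several of which are TOP mRNAs, 5 were higher and 0 lower at 3 h, or 1 and 3 with library totals, led by Snhg3 (0.73, SE 0.23) and Snhg6 (0.61, SE 0.12).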

How the data were processed

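RNA was measured in 20 libraries by stranded polyA sequencing, single-end reads of 50 bases, per the labels' protocols. The submitters' processing notes name cutadapt 1.12, STAR, featureCounts 1.5.1, DESeq2 and mm10. Not given in the sources used here are the gene annotation, whether counting used strand and how multi-mapping reads were handled. The deposited values are whole-number counts per gene, which the authors did not normalize, with a length column. Of 45706 Ensembl identifiers, 45143 (98.8%) had a symbol. All genes reaching 1 CPM in 2 or more libraries entered edgeR 4.0.16 (R 4.3.3; TMM scaling, quasi-likelihood F test with robust estimation, condition plus genotype, 9 residual degrees of freedom; genotype by time, 6) with Benjamini-Hochberg adjustment over all 14023 and a threshold of 0.05. Levels are CPM on the TMM-scaled library size, and log2 levels use a prior count of 2. A floor of 3 counts in a library is at most 0.324 CPM unscaled. A standard error is the size of the log2 change over the root of its F value. Alternatives were library totals, relative log expression factors, TMM without the members, no count filter, DESeq2 1.42.0, limma-voom (limma 3.58.1), each library left out and both LPS 3 h libraries left out. Uniqueness is the percent of 50-base stretches in no other GENCODE M21 transcript set. Genes named in each comparison were the 5 largest rises and falls past the threshold, plus fixed paralogs, stalk proteins, members with other roles and PCR references. Results for a few genes are not reported here. The members and lists were chosen with earlier results of these data known. Library totals and relative log expression factors were also applied to the companion lists, an alternative chosen after seeing the data.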

Additional observations from a re-analysis of the deposited data

How the results depend on the processing

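The scale decided most of what was called: with scaling by library totals in place of TMM the members higher and lower numbered 3 and 1 at 0.5 h, 9 and 3 at 1 h, 5 and 21 at 3 h, 12 and 4 after IL-1b, 1 and 45 after LPS, 4 and 1 after TNF, and 0 and 53 with LPS against IL-1b and TNF, and 2 were lower with IL-1b and LPS against TNF at 0.5 h. The members' medians turned to −0.0041 at 1 h, −0.11 at 3 h, −0.30 after LPS, −0.036 after TNF and −0.31 with LPS against IL-1b and TNF. Changes at 3 h of the opposite sign were those of Rpl7l1 (−0.044), Rpl22 (−0.24), Rpl7 (−0.20), Rpl39 (−0.23), Rpl3 (−0.11), Rplp0 (−0.17), Rplp1 (−0.019), Rplp2 (−0.050), Rpl23 (−0.25), Rpl26 (−0.14), Rpl13a (−0.071), Rps3 (−0.13), Rps19 (−0.13), Rps18 (−0.0053), Rpl32 (−0.0096) and Rpl4 (−0.215). After LPS they were those of Rpl22l1 (−0.45), Rpl7l1 (−0.585), Rpl22 (−0.50), Rpl7 (−0.33), Rpl39 (−0.42), Rpl3 (−0.34), Rps4x (−0.57), Rplp0 (−0.385), Rplp1 (−0.23), Rplp2 (−0.30), Rpl5 (−0.28), Rpl23 (−0.496), Rpl26 (−0.25), Rpl13a (−0.26), Rps3 (−0.33), Rpsa (−0.46), Rps19 (−0.34), Rps18 (−0.22), Rpl32 (−0.20) and Rpl4 (−0.46), and with LPS against IL-1b and TNF those of Rps20 (−0.014), Rpl41 (−0.076), Rps27l (−0.076) and Rps24 (−0.077). The cause was not tested. Without a count filter 1 member was lower in the knock-in, 3 were higher at 0.5 h and 0 were lower with IL-1b and LPS against TNF, and DESeq2 gave 1 lower in the knock-in and 0 lower in that agent comparison.

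Leaving out 1 library gave 2 to 3 members higher and 1 to 2 lower in the knock-in, 1 to 8 higher at 0.5 h, 1 to 18 higher and 0 to 1 lower at 1 h, 21 to 41 higher and 0 to 1 lower at 3 h, 9 to 32 higher and 0 to 1 lower after IL-1b, 28 to 45 higher after LPS, 2 to 10 higher after TNF, 15 to 29 higher and 2 to 3 lower with LPS against IL-1b and TNF, 3 to 14 higher and 0 to 1 lower with IL-1b and LPS against TNF at 0.5 h, and 0 to 1 lower in the change of the genotype difference. Without a 0 h library, fewer of all genes were called at 0.5, 1 and 3 h as well. With 1 library a group, genotype pairs or conditions stand in for replicates, and depth limits the members with few counts most.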
